A study of Sus scrofa with 6 samples.

Results

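Levels of 8 genes of cartilage proteoglycans, link proteins and chondrocyte factors were followed in RNA sequencing libraries of the ear from 6 Sutai piglets, 3 of genotype QQ (6185STQ, 6415 and 6434) and 3 of genotype qq (6161ST, 6165ST and 6407). Sutai pigs have Taihu and Duroc ancestors. The QQ and qq piglets were read as the CNV/CNV (large-eared) and wild-type (small-eared) animals of the article, which differ by a copy number variant at an ear size locus. All were piglets labelled as new born, with the ear as the tissue, and each library is 1 piglet. The 8 genes (*ACAN*, *HAPLN1*, *HAPLN3*, *CHAD*, *CHADL*, *C2orf82*, *CYTL1* and *CILP2*) are 8 of the 22204 transcripts with a read in any library. They were chosen from the genes listed by the study as higher in QQ than in qq piglets in these same libraries, so the difference between the genotypes is given as a description, and counts of tests passed by them support nothing. No source used here gives the litter or sex of the piglets.

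The pinna is a plate of elastic cartilage between layers of skin with hair follicles. In cartilage, aggrecan, the product of *ACAN*, carries chains of chondroitin and keratan sulfate that hold water, and it is anchored along hyaluronan by link proteins. A network of collagen fibrils, made in cartilage mainly from the *COL2A1* product, takes up the swelling of this gel. This matrix is laid down by chondrocytes. In bulk ear tissue, fewer chondrocytes and less RNA of these genes per chondrocyte cannot be told apart.

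The libraries held from 39.3 to 44.2 M (mega) reads assigned to transcripts. The values are uniquely mapped reads per Ensembl transcript and RPKM (reads per kilobase and per mega of assigned reads). On the first principal component of the 500 most variable transcripts, which held 45.9% of the variance and included all 8 genes, 6161ST and 6165ST had scores of -28.4 and -30.8, while 6407 (13.4) lay among the QQ piglets (1.78 to 24.2). The same pair of qq libraries was low in cartilage genes, and the fold changes between the genotypes are therefore given with and without them. All 6 libraries held transcripts of cartilage and of hair, although *COMP*, a cartilage matrix gene, had only 2 reads in 6165ST.

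All 8 genes had their lowest level in 6165ST and their second lowest in 6161ST, although *CHADL* was alike in both (1.22 and 1.28 RPKM). In each of the 8 genes the third qq piglet, 6407, was far above both and near the QQ piglets. Together the 8 genes had 49.0 RPKM in 6161ST, 15.5 RPKM in 6165ST and 266 RPKM in 6407, against 233 RPKM in 6185STQ, 378 RPKM in 6415 and 483 RPKM in 6434. Their share of all assigned reads was 0.0149%, 0.00509% and 0.0748% in the qq piglets in that order and 0.0621%, 0.108% and 0.0901% in the QQ piglets. The ranges of the genotypes thus overlapped for the sum, with 6407 above 6185STQ. The mean sum in QQ was 3.31 times that in qq piglets, and 1.37 times that of 6407 alone.

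*ACAN* (ENSSSCT00000002052), the gene of aggrecan, had 8.08, 2.43 and 43.6 RPKM in 6161ST, 6165ST and 6407 and 32.3, 65.2 and 33.1 RPKM in 6185STQ, 6415 and 6434. The qq piglet 6407 exceeded 2 of the 3 QQ piglets and lay at their mean. The lowest of these values rested on 695 reads that covered 95.9% of the transcript, so that *ACAN* was read along its length in every library.

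The link protein genes come next. *HAPLN1* (ENSSSCT00000015441) encodes the classical link protein of cartilage, which locks aggrecan onto hyaluronan. Its levels were 6.50, 1.32 and 31.5 RPKM in 6161ST, 6165ST and 6407 and 23.7, 50.8 and 24.6 RPKM in 6185STQ, 6415 and 6434. These follow the levels of *ACAN* library by library. *HAPLN3* (ENSSSCT00000023723), a relative of *HAPLN1* that is also expressed outside cartilage, had 9.96, 4.81 and 32.5 RPKM in the qq piglets and 40.0, 45.5 and 59.8 RPKM in the QQ piglets in the same order. *HAPLN3* was the only one of the 8 genes for which every QQ piglet lay above every qq piglet.

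*CHAD* (ENSSSCT00000019124) encodes chondroadherin, a leucine-rich repeat protein that binds collagen and the integrins of chondrocytes. It had 10.8, 4.99 and 55.0 RPKM in the qq piglets 6161ST, 6165ST and 6407 and 48.8, 73.9 and 113 RPKM in the QQ piglets 6185STQ, 6415 and 6434. *CHADL* (ENSSSCT00000000073), a chondroadherin-like gene whose product also binds collagen, was the lowest of the 8 genes in every library but 6165ST, where it was at rank 5, with 1.28, 1.22 and 3.25 RPKM and 3.92, 6.90 and 2.31 RPKM in the same order. For *CHADL* the levels in 6161ST and 6165ST were alike, and the QQ piglet 6434 lay below the qq piglet 6407. In 6165ST its 124 reads covered 53.2% of the transcript, whereas 132 reads covered 77.8% in 6161ST.

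*C2orf82* (ENSSSCT00000017743) encodes SNORC, a small membrane proteoglycan of chondrocytes. It had 1.38, 0.338 and 5.96 RPKM in the qq piglets and 12.8, 14.8 and 4.76 RPKM in the QQ piglets, in the order above. The value of 6165ST came from 7 reads, with an exact 95% Poisson interval from 0.136 to 0.695 RPKM (this and the intervals below cover counting error only). As for *CHADL*, 6434 was the lowest QQ piglet and lay below 6407.

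*CYTL1* (ENSSSCT00000009545), a gene of a secreted cytokine-like protein made by chondrocytes, had 8.84, 0.243 and 71.2 RPKM in 6161ST, 6165ST and 6407 and 58.7, 94.0 and 217 RPKM in 6185STQ, 6415 and 6434. It spanned the widest range of the 8 genes, 895-fold between 6434 and 6165ST. The lower end rested on 4 reads in 6165ST (Poisson interval from 0.0661 to 0.621 RPKM). *CILP2* (ENSSSCT00000015220), the gene of a secreted protein of the cartilage intermediate layer family, had 2.23, 0.134 and 23.2 RPKM and 12.6, 26.7 and 28.5 RPKM. Its range was 212-fold, with 22 reads in 6165ST that covered 39.2% of the transcript.

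**Figure D1:**
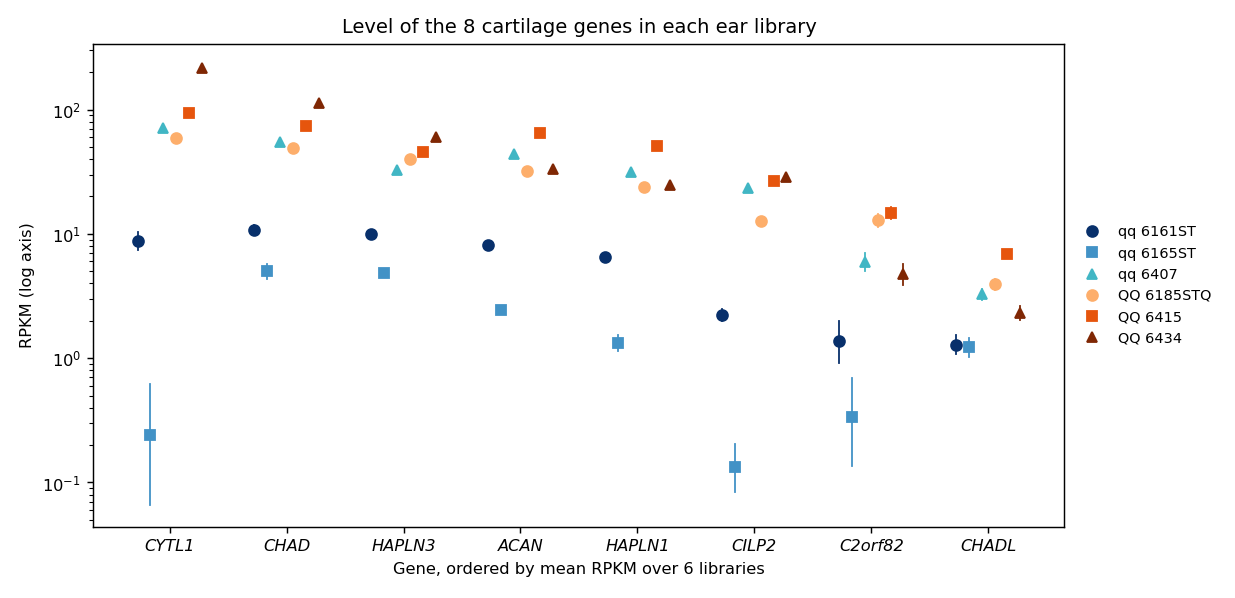
RPKM on a log axis of each of the 8 genes, ordered along the horizontal axis by mean level, in the 3 qq piglets (blue) and the 3 QQ piglets (orange to brown). Points are single libraries and vertical lines are exact 95% Poisson intervals. For every gene 6165ST is lowest and 6161ST second lowest, with overlapping intervals for CHADL, and the qq piglet 6407 lies near the QQ piglets.

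By the mean over the 6 libraries the order of levels was *CYTL1* (75.0 RPKM), *CHAD* (51.1), *HAPLN3* (32.1), *ACAN* (30.8), *HAPLN1* (23.1), *CILP2* (15.6), *C2orf82* (6.67) and *CHADL* (3.15 RPKM). Some steps of this order were held by every library: *CHAD* was above *HAPLN3*, and *ACAN* above *HAPLN1*, in 6 of 6. Others were not, since *CYTL1* was above *CHAD*, *HAPLN3* above *ACAN* and *CILP2* above *C2orf82* in 4 of 6 libraries. Both low qq libraries had *CHAD* first, at 10.8 and 4.99 RPKM, and in 6165ST *CYTL1*, first in the QQ piglets, was at rank 7. These comparisons between genes rest on transcript models from 408 bases (*CYTL1*) to 7081 bases (*ACAN*).

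Within the qq group, the 8 genes differed between piglets more than the median transcript. Log2 CPM is the log2 of counts per mega of the normalized library total. Among the qq piglets its SD was 3.88 for *CYTL1*, 3.71 for *CILP2*, 2.33 for *HAPLN1* and 2.14 for *ACAN*. The SD was smallest for *CHADL* at 0.84, whereas its median over the 16645 transcripts tested was 0.24. Among the QQ piglets the SD was from 0.30 for *HAPLN3*, near the median of 0.27 over all transcripts, to 0.96 for *CYTL1*. The highest over the lowest library ranged from 5.63-fold for *CHADL* and 12.4-fold for *HAPLN3* through 22.7-fold for *CHAD*, 26.9-fold for *ACAN*, 38.4-fold for *HAPLN1* and 43.8-fold for *C2orf82* to the 212-fold and 895-fold of *CILP2* and *CYTL1*. The median of these ranges was 32.6-fold, and 9.30-fold without 6165ST.

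The link protein gene *HAPLN1* kept a nearly fixed level relative to *ACAN*. The ratio of their RPKM was 0.805 in 6161ST, 0.545 in 6165ST and 0.723 in 6407, and 0.736, 0.779 and 0.745 in 6185STQ, 6415 and 6434. Apart from 6165ST (95% counting interval of its ratio from 0.464 to 0.639), the highest ratio was 1.11 times the lowest, while *ACAN* itself varied 8.08-fold over these 5 libraries. The mean ratio was 0.691 ± 0.133 (SD, n = 3) in qq and 0.753 ± 0.0225 (SD, n = 3) in QQ piglets, with overlapping ranges. *HAPLN3* did not keep to *ACAN* in this way. Its ratio was 1.23, 1.98 and 0.745 in the qq piglets and 1.24, 0.698 and 1.81 in the QQ piglets, a 2.84-fold range in which 6165ST and 6434, one piglet of each genotype, were highest. *CHAD* relative to *ACAN* was 1.33, 2.06 and 1.26 in the qq and 1.51, 1.13 and 3.42 in the QQ piglets, and it too was highest in 6434 and next in 6165ST.

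**Figure D2:**
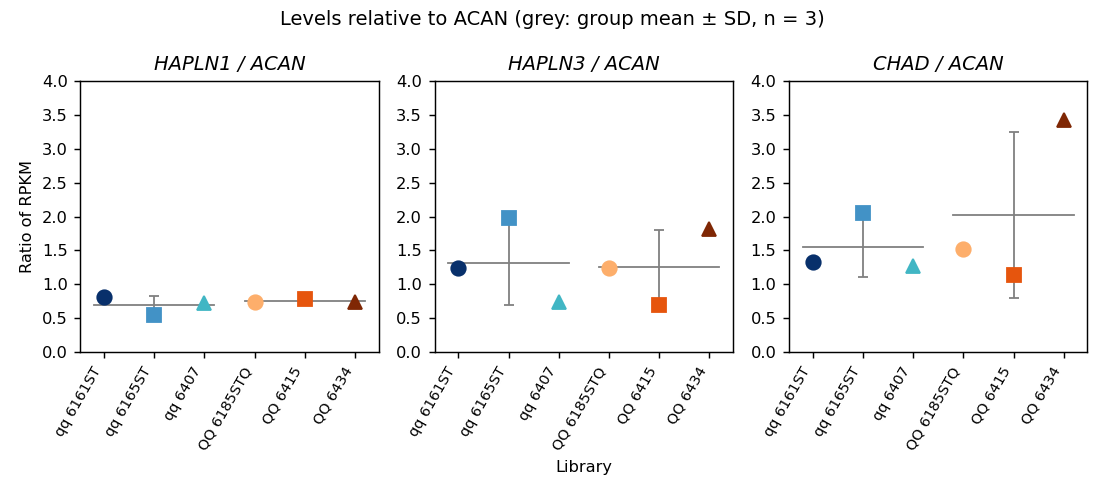
Ratio of the RPKM of HAPLN1, HAPLN3 and CHAD to that of ACAN in each library (linear axis from 0), with the group mean and SD in grey (n = 3). The HAPLN1 ratio lies between 0.545 and 0.805 in all 6 libraries, while the other ratios spread up to 1.98 and 3.42.

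The remaining genes parted from *ACAN* mostly in 6165ST. *CYTL1* over *ACAN* was 0.0999 in 6165ST, against 1.09 to 6.57 in the other 5 libraries, and *CILP2* over *ACAN* was 0.0552 against 0.276 to 0.861. *CHADL* over *ACAN* went the other way, at 0.505 in 6165ST against 0.0698 to 0.159. *C2orf82* over *ACAN* was 0.139 in 6165ST, within the range of the other libraries (0.137 to 0.397), and was highest in the QQ piglet 6185STQ.

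The 5 other cartilage genes of the list, *COL2A1*, *COL9A2*, *MATN1*, *MATN3* and *COMP*, were likewise lowest in 6165ST and second lowest in 6161ST, in 5 of 5. *COL2A1*, the gene of the main fibrillar collagen of cartilage, had 24.4, 0.483 and 351 RPKM in 6161ST, 6165ST and 6407 and 221, 542 and 156 RPKM in 6185STQ, 6415 and 6434. *COMP*, which encodes a matrix protein that binds collagen fibrils, had 4.25, 0.0201 and 26.1 RPKM and 19.2, 40.8 and 52.1 RPKM. The collagen IX gene *COL9A2*, whose product sits on the surface of the fibrils, ranged from 1.55 to 141 RPKM. The matrilin genes *MATN1* and *MATN3*, for proteins that link fibrils and proteoglycans, ranged from 0.0995 to 7.91 RPKM and from 0.119 to 16.3 RPKM. The summed level of the 5 was 2.27 to 481 RPKM in qq and 288 to 745 RPKM in QQ piglets.

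Relative to *COL2A1*, the levels of the proteoglycan and link protein genes were much higher in 6165ST than elsewhere. *ACAN* over *COL2A1* was 5.03 in 6165ST (counting interval from 3.99 to 6.34), against 0.331 in 6161ST, 0.124 in 6407, 0.146 in 6185STQ, 0.120 in 6415 and 0.212 in 6434. *HAPLN1* over *COL2A1* was 2.74 in 6165ST and 0.0897 to 0.267 in the others. *HAPLN3* and *CHAD* stood at 9.96 and 10.3 in 6165ST, against 0.0840 to 0.408 and 0.136 to 0.727. *CHADL* was at 2.54 against 0.00927 to 0.0527. *C2orf82*, with its 7 reads, was at 0.699 (counting interval from 0.323 to 1.51) against 0.0170 to 0.0580. For the first 5 of these genes the library with 80 reads of *COL2A1* still held 124 (*CHADL*) to 794 (*HAPLN3*) reads. *CYTL1* and *CILP2*, in contrast, fell with *COL2A1*: their ratios in 6165ST were 0.502 (counting interval from 0.184 to 1.37) and 0.278, within the range of the other libraries for *CYTL1* (0.173 to 1.39) and above it for *CILP2* (0.0492 to 0.183), whose counting interval of 0.173 to 0.445 reached into that range. Across all 6 libraries the ratio to *COL2A1* varied 8.04-fold for *CYTL1* and 5.64-fold for *CILP2*, but 118.6-fold for *HAPLN3* and 274-fold for *CHADL*. Without 6165ST these 4 ranges were 8.04-fold, 3.71-fold, 4.86-fold and 5.68-fold.

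**Figure D3:**
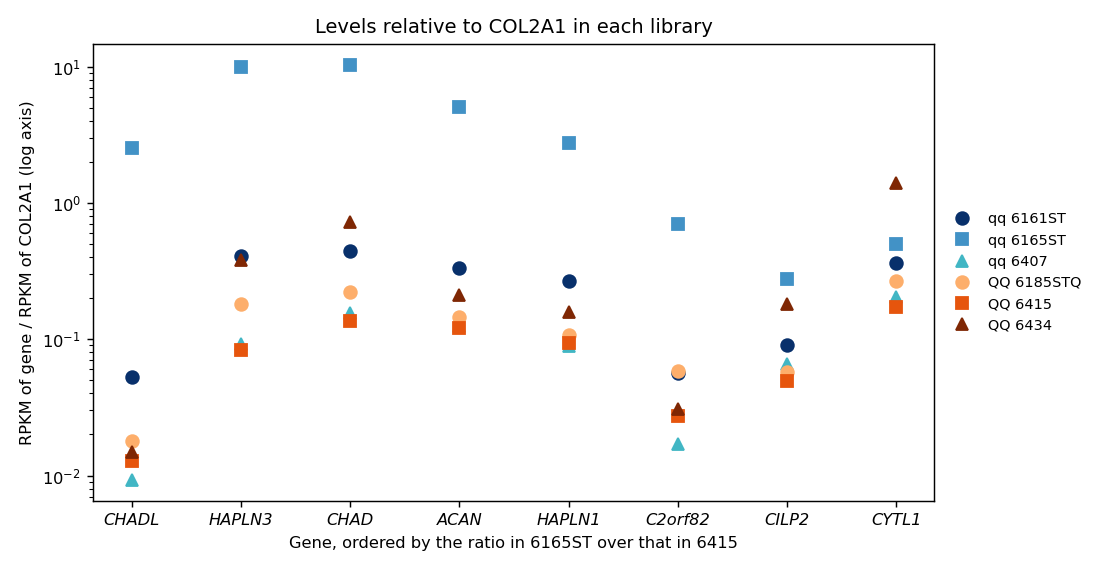
RPKM of each gene divided by that of COL2A1 (log axis) in each library, genes ordered by the ratio in 6165ST over that in 6415. For ACAN, HAPLN1, HAPLN3, CHAD, CHADL and C2orf82 the square of 6165ST stands far above the other libraries, at 5.03 against 0.120 to 0.331 for ACAN, while for CYTL1 it lies within their range.

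The QQ piglets differed among themselves in the makeup of these genes. From 6415 to 6434, *CYTL1* was 2.31-fold, *CHAD* 1.53-fold and *HAPLN3* 1.32-fold, while *ACAN* was 0.507-fold, *HAPLN1* 0.485-fold, *CHADL* 0.334-fold and *C2orf82* 0.322-fold. *CILP2* was at 1.07-fold. Of the other cartilage genes, *MATN1* (1.71-fold) and *COMP* (1.28-fold) were higher in 6434, and *COL9A2* (0.486-fold), *COL2A1* (0.288-fold) and *MATN3* (0.194-fold) were lower. Between 6415 and 6185STQ all 8 genes had the lower value in 6185STQ, from 0.468-fold for *HAPLN1* to 0.880-fold for *HAPLN3*. For *C2orf82* (0.866-fold, 258 against 331 reads) the Poisson intervals of the 2 libraries overlapped, 11.3 to 14.5 against 13.2 to 16.5 RPKM. With 1 library per piglet these ratios have no replicate of their own.

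**Figure D4:**
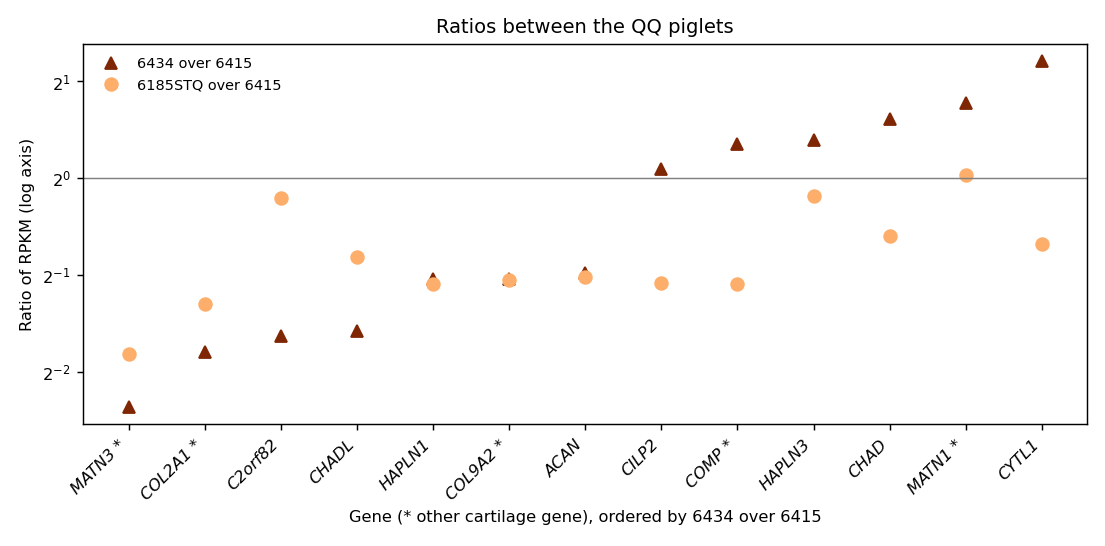
Ratio of RPKM (log axis) of 6434 (triangles) and 6185STQ (circles) to 6415 for the 8 genes and the 5 other cartilage genes (asterisks), ordered by the first ratio. In 6434 the ratio runs from 0.194 for MATN3 to 2.31 for CYTL1, on both sides of 1, while in 6185STQ all genes but MATN1 lie below 1.

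Across the 6 libraries the log2 CPM of the 8 genes was correlated. In RPKM every gene was lowest in 6165ST and second lowest in 6161ST. Among the QQ piglets the genes did not all move together. From 6415 to 6434, *CYTL1* was 2.31-fold and *CHAD* 1.53-fold, but *ACAN* was 0.507-fold and *C2orf82* 0.322-fold. Pearson's r over the 28 pairs was from 0.73 (*CHADL* and *CYTL1*) to 0.997 (*ACAN* and *HAPLN1*), with a median of 0.95. These points share the library, and n is 6. The genes were chosen as higher in QQ than in qq piglets in these same libraries, so a high r among them is in part built in. The r without both 6161ST and 6165ST was not computed. *ACAN* and *HAPLN1* had an r of 0.989 each with the mean profile of the other 7 genes, *CILP2* 0.985 and *CHADL*, the least alike, 0.838. Without 6165ST the r of *CHADL*, *C2orf82* and *CYTL1* was 0.825, 0.840 and 0.898, and that of the others was at least 0.945. The r of the 13032 other transcripts with a mean of at least 1 RPKM was taken with the mean profile of all 8 genes. For 416 of them (3.19%) it was at least 0.838, the value of *CHADL* with the other 7. *COL9A2* had 0.994 and *MATN3*, the lowest of the 5 other cartilage genes, 0.963. Among the named transcripts outside these 13 genes, the closest were *EXTL1* (0.996), a glycosyltransferase gene of the exostosin family, *BMP5* (0.989), a bone morphogenetic protein gene, *FZD9* (0.983), a Wnt receptor gene, *COL8A1* (0.981), a short-chain collagen gene, and *C1QTNF3* (0.965), a gene of a secreted protein of the C1q family. *EXTL1*, for one, had 0.666, 0.177 and 3.16 RPKM in the qq and 3.29, 3.87 and 3.04 RPKM in the QQ piglets. The profiles most opposed were those of *SELENBP1* (r = -0.994), a selenium-binding protein gene, and of the hair genes *KRTAP27-1* (-0.986) and *KRT31* (-0.983). Names were at hand for 204 of the 13032 transcripts, all from the study's own list.

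Between the genotypes, the mean of every one of the 8 genes was higher in QQ than in qq piglets. The aggrecan gene *ACAN* had 18.0 ± 22.3 RPKM (SD, n = 3) in qq and 43.5 ± 18.8 RPKM (SD, n = 3) in QQ piglets, with a log2 fold change, QQ over qq, of 1.35 (standard error 0.89). For *HAPLN1* the means were 13.1 ± 16.1 and 33.1 ± 15.4 RPKM and the log2 fold change 1.41 (standard error 0.93), and for *HAPLN3* they were 15.8 ± 14.7 and 48.5 ± 10.23 RPKM with 1.71 (0.62). *CHAD* had 23.6 ± 27.4 and 78.6 ± 32.4 RPKM with 1.82 (0.80), and *C2orf82* had 2.56 ± 2.99 and 10.8 ± 5.31 RPKM with 2.15 (0.86). In all of the 8 genes but *HAPLN3* the values of the groups overlapped, with 6407 above at least 1 QQ piglet. The log2 fold changes of *CHADL*, *CYTL1* and *CILP2* were 1.29, 2.27 and 1.47 (standard errors 0.51, 1.27 and 1.26).

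All 8 had a log2 fold change over 1 in edgeR, against 1.63% of the 16645 transcripts tested. A fold change above 0 was found for 8 of 8, against 49.8% of all. None of the 8 passed an adjusted p of 0.05 in edgeR's quasi-likelihood test (Benjamini-Hochberg over all transcripts), where 1 of 16645 (0.00601%) did. At an unadjusted p under 0.05, 3 of the 8 were higher in QQ (*HAPLN3*, *CHADL* and *C2orf82*), against 2.48% of all. That count was 8 without 6407, 0 without 6161ST and 1 without 6165ST, but the share of all transcripts was not counted for these runs. DESeq2 passed 0 of the 7 members to which it gave an adjusted p (all but *CILP2*), against 0.140% of all. The groups did not overlap for 1 of 8, *HAPLN3*, while 2.11% of all transcripts had every QQ piglet above every qq piglet. Since this contrast chose the genes, nothing is read from these counts.

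How large the difference was depended on which qq piglets were compared. Without 6407 the median log2 fold change of the 8 genes was 3.36 rather than 1.59, with 3.21 (standard error 0.57) for *ACAN*, 2.87 (0.35) for *HAPLN3* and 4.92 (1.13) for *CYTL1*. Without 6161ST and 6165ST, where 6407 alone stands for qq and is assumed to vary like the QQ piglets, the median was 0.52, with 0.05 (0.44) for *ACAN*, 0.12 (0.45) for *HAPLN1* and 0.01 (0.45) for *CILP2*. *HAPLN3*, *CHAD*, *C2orf82* and *CYTL1* then had 0.63 (0.30), 0.57 (0.45), 0.90 (0.64) and 0.85 (0.69). The titles of 6161ST, 6165ST and the QQ piglet 6185STQ hold the letters ST, whose meaning is unexplained in the labels and the article. Between these 3 piglets QQ minus qq had a median over the 8 genes of 3.09 on the log2 CPM scale, and between the other 3 piglets it was 0.45, each with a lone piglet on 1 side and no test. For *ACAN* these differences were 3.02 and 0.15, and for *CYTL1* 5.17 and 1.06. The log2 fold change of *CYTL1* over all piglets also leaned on 6434, without which it was 1.57.

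**Figure D5:**
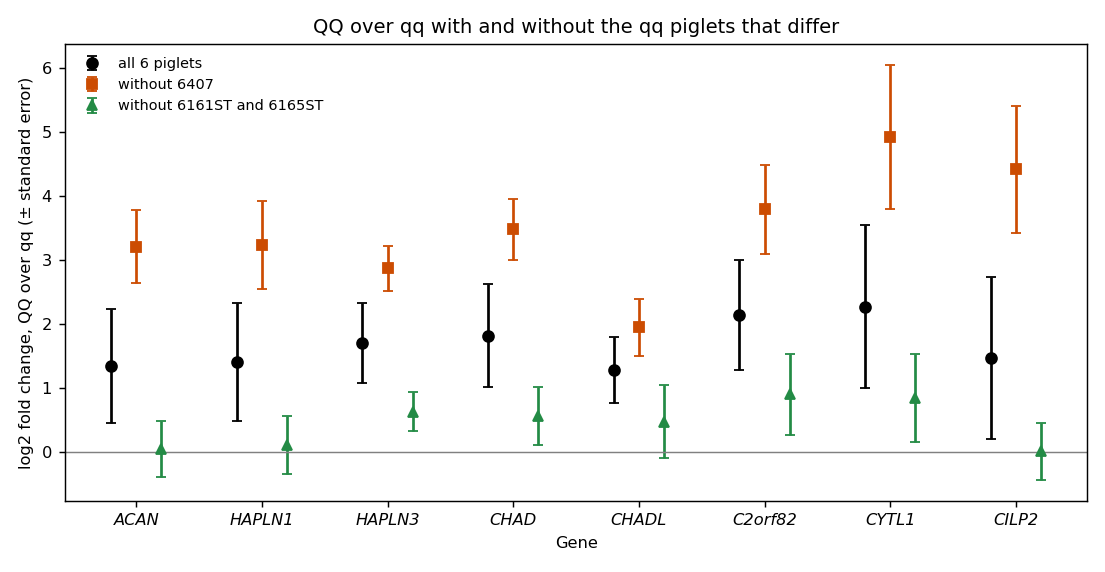
Log2 fold change, QQ over qq, from edgeR with its standard error for each of the 8 genes in all 6 piglets (black), without 6407 (orange) and without 6161ST and 6165ST (green). For ACAN the 3 values are 1.35, 3.21 and 0.05, and the green symbols of ACAN, HAPLN1 and CILP2 lie at or near 0.

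The 5 other cartilage genes had log2 fold changes from 1.35 to 1.956 with a median of 1.502, close to the median of 1.59 of the 8 genes, and 0 of 5 passed the adjusted or the unadjusted threshold in edgeR. Without 6407 they ranged from 3.91 to 4.80. Without 6161ST and 6165ST they were -0.15 for *COL2A1*, 0.09 for *COL9A2*, -0.01 for *MATN1*, 0.10 for *MATN3* and 0.57 for *COMP*. The values of *COL2A1* and *MATN1* were below 0, but by less than their standard errors (0.65 and 0.40). Genes of the lists named for other parts of the ear also differed in 6161ST and 6165ST. Whether these lists leave out cartilage was not tested, and *COL8A1* of the dermal matrix list was close to the profile of the 8 genes (r = 0.981). Of 9 genes of dermal matrix, 8 had their lowest 2 values in 6161ST and 6165ST, and their summed level was 1183 to 6270 RPKM in qq and 1926 to 10022 RPKM in QQ piglets. Among them *COL1A1*, the gene of type I collagen, had 866 and 1042 RPKM in 6161ST and 6165ST, 5336 RPKM in 6407 and 1455 to 8405 RPKM in QQ piglets, and *ELN*, the elastin gene, had 143, 160.4, 455 and 228 to 944 RPKM. Here the QQ piglet 6185STQ, at 1455 and 228 RPKM, was nearer to the low qq pair than to 6407 or the other QQ piglets. Of 9 hair shaft genes, 7 were highest in 6161ST or 6165ST. The other 2 went the opposite way, being highest in the QQ piglet 6185STQ, with log2 fold changes of 2.31 and 3.39. The sum of the 9 was 1291 to 4952 RPKM in qq and 879 to 1422 RPKM in QQ piglets. The hair keratin genes *KRT31* and *KRT33B* had 1893 and 1036 RPKM in 6165ST. All 8 pigment cell genes were highest in 6161ST or 6165ST, such as *TYRP1* and *DCT* at 134 and 49.2 RPKM in 6165ST, with sums of 160.0 to 294 RPKM in qq and 88.2 to 159.8 RPKM in QQ piglets. Of the red cell genes, *HBB* was listed in none of the 6 tables and *ALAS2* had 0.175 to 0.628 RPKM in qq and 0.549 to 1.15 RPKM in QQ piglets. Without 6161ST and 6165ST the median log2 fold change went from 1.23 to 0.27 for the dermal matrix genes, from -1.07 to -0.11 for the hair shaft genes and from -0.95 to -0.47 for the pigment cell genes, and that of *ALAS2* went from 1.52 to 0.54. None of the genes of these lists passed an adjusted p of 0.05 in edgeR. In DESeq2, 1 did, a hair shaft gene (adjusted p = 9.09e-05), against 0.14% of all transcripts. All genes of these lists were taken from genes chosen by the study on these libraries. The part of skin, hair and pigment cell content in the levels of the 8 genes was not tested.

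Some of the 8 genes share their place in the genome with others. In the RefSeq annotation of the pig genome, *ACAN* and *HAPLN3* are neighbours whose gene ranges overlap, *CHAD* overlaps *ACSF2*, and *CHADL* overlaps *L3MBTL2*. *HAPLN1* is the neighbour of *VCAN*, the gene of another hyaluronan-binding proteoglycan, without overlap. The tables give no strand, so reads in a shared stretch cannot be assigned to either gene with certainty, and the levels of *ACAN*, *HAPLN3*, *CHAD* and *CHADL* are uncertain to that degree. The build behind the counts is not settled, since the methods and the submitters' processing notes name different ones, and positions are therefore not given.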

How the data were processed

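Ear RNA of 6 piglets was sequenced from both fragment ends on an Illumina HiSeq, with poly(A) selection, 1 library each. The authors deposited, for each Ensembl transcript, the count of uniquely mapped reads, its length, the percent of the length covered by reads, and the RPKM. The RPKM values deposited by the authors equalled those recomputed from count, length and library total for 100% of transcripts (relative tolerance 0.001). The percent coverage was used as deposited by the authors. TopHat and Cuffdiff are named in the article and in the submitters' processing notes, which also list Bowtie2 and give Sscrofa10.2 as the build where the article has a later one. The counting program and the versions were not given in the sources used here. The study's own comparison, made with Cuffdiff, was not used here beyond its pairing of 280 transcripts with names, of which 264 were in the tables.

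A transcript not listed was set to 0. QQ was compared with qq in R 4.3.3 with edgeR 4.0.16 (filterByExpr, TMM, glmQLFit, glmQLFTest, genotype as the only term) on the counts of 16645 transcripts, all 8 members included, with Benjamini-Hochberg adjustment. The standard error is the log2 fold change over the root of F. Log2 CPM used a prior count of 2 and, as library totals, the TMM-scaled totals of these 16645 transcripts. DESeq2 1.42.0, other normalization and filters, a term for ST in the title and leaving out piglets were alternatives. Gene neighbours are from RefSeq. The fit was tested on simulated counts. Intervals of counts are exact 95% Poisson intervals, and those of ratios are normal approximations on the log scale. They take each read as independent, although both ends of a fragment were sequenced, so they may be too narrow. An exact permutation test of 3 against 3 could not go below p = 0.1 and was not used. Since litters are not given, the fits measure the spread between these piglets.

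Members, lists and tests were chosen with earlier results of these data known. Genes named are the 8 members, the 5 other cartilage genes, the 5 named transcripts most and the 3 least like the members' mean profile (at least 1 RPKM), and, of each other list (dermal matrix, hair shaft, pigment cell, red cell), the 2 with the highest mean RPKM. Other list members are only counted.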

Additional observations from a re-analysis of the deposited data

How the results depend on the processing

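In runs with more than 1 piglet per genotype few transcripts passed the adjusted threshold. They were at most 6 of 16963 in edgeR (without 6407) and 28 of 20040 in DESeq2. Of the 8 genes, 0 passed it under each of these alternative runs, leaving out each piglet included. With so few passing, the 0 says little about these genes. An unadjusted p under 0.05 was found for 3 in edgeR with all piglets and for 2 of the 7 with a p in DESeq2. The count was 4 without a filter and 5 with a term for ST in the title. With a piglet left out it was 0 (without 6161ST) to 8 (without 6407). The share of all transcripts was counted only for edgeR with all piglets (2.48% higher in QQ), and nothing is read from these counts. Since the genes were chosen as higher in QQ in these same libraries, a constant sign is in part built in. All 8 log2 fold changes stayed above 0 in every alternative run, down to 0.01 (standard error 0.45) for *CILP2* without 6161ST and 6165ST. Their median of 1.59 was 1.61 in DESeq2, 1.58 with upper quartile normalization, 1.59 without a filter and 1.73 with a term for ST in the title. Leaving out 1 piglet at a time it ranged from 1.15 (without 6165ST) to 3.36 (without 6407). The mean summed RPKM of the 8 genes was 3.31 times as high in QQ as in qq piglets, 2.75 times as a share of assigned reads, and from 2.31 (without 6165ST) to 11.3 times (without 6407) with a piglet left out, and 1.37 times without 6161ST and 6165ST. The median of the highest over the lowest library, 32.6-fold per assigned read, was 41.5-fold per read of *COL2A1*, 161-fold per read of *COMP*, which had 2 reads in 6165ST, and 3.02-fold per read of *ACAN*. Without 6165ST these were 4.29-fold, 2.55-fold and 2.90-fold. Per assigned read it was from 9.30-fold (without 6165ST) to 32.6-fold with a piglet left out. The median r of a member with the others was 0.97, 0.97 with a prior count of 0.5, 0.98 at a mean of at least 5 RPKM and from 0.95 to 0.99 with a piglet left out. The values of the sum, the range and r with piglets left out were added after the data were seen. No paired analysis was possible because the labels give no replicate numbers. In 6165ST, the 4 reads of *CYTL1*, 7 of *C2orf82* and 2 of *COMP* limit what can be said of their levels.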
